A study of Homo sapiens with 8 samples.

Results

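The 10 genes described here encode proteins that detect, mark, cut or answer double-stranded RNA, and they were taken by symbol from the deposited expression tables, where DDX58 stands for the gene now also called RIGI. All 10 were found, each as 1 gene, out of 34164 genes listed in either table, and each had a value in all 8 libraries. The sensors are DDX58, IFIH1 and TLR3, the adaptor is MAVS, the transcription factors are IRF3 and IRF7, the kinase is EIF2AK2, the editing enzyme is ADAR, and DICER1 and AGO2 act on small RNAs.

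RNA-seq was done on Kyse510, an established cell line of esophageal squamous cell carcinoma, with 1 library per condition and paired reads of 150 bases. In the inhibitor table, cells had vehicle (DMSO), SP2509 (an inhibitor of the histone demethylase LSD1) at 7 µM, UNC0642 (an inhibitor of the histone methyltransferase G9a) at 7 µM, or the 2 inhibitors together, whose doses are not stated separately, for 2 days. In the knockdown table, Kyse510 lines carrying a doxycycline-inducible lentiviral hairpin against LSD1 (shLSD1) or G9a (shG9a) had been kept under puromycin for 14 days and were then grown without or with doxycycline (Dox) for 2 days. No library of cells given Dox without a targeting hairpin was analysed here, so an effect of Dox itself and an effect of the knockdown cannot be told apart.

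Double-stranded RNA arises during the replication of many viruses and from transcribed endogenous repeats. RIG-I (DDX58) and MDA5 (IFIH1) bind it in the cytosol and pass a signal to MAVS on the mitochondrial surface, while TLR3 reads it in endosomes through the adaptor TRIF (TICAM1), and both routes end in the phosphorylation of IRF3 and IRF7 and the transcription of interferon genes. PKR (EIF2AK2) halts translation by phosphorylating eIF2 alpha, ADAR turns adenosine into inosine and so loosens the duplex, and DICER1 and AGO2 cut RNA into and by means of small RNAs.

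Values are FPKM, that is fragments counted on a gene, scaled by the length of the gene and by the library total. The log2 fold changes below compare FPKM + 1 of a treated library with FPKM + 1 of its own control, which understates the change of low genes, and a gene was called up or down when this fold was at least 1.3 (0.379 on the log2 scale) and at least 1 of the 2 libraries reached 1 FPKM. Since no condition has a replicate, no test between conditions was possible. A 95% interval beside a fold is the exact binomial (Clopper-Pearson) interval of the ratio of estimated reads per library total, without a pseudocount, and covers counting error between those 2 libraries only. The estimated totals ranged from 15662035 to 17889466 reads per library. The 3 inhibitor comparisons share the vehicle library, and the 2 tables were normalised separately, so levels are set against each other within a table. These are bulk samples, in which fewer cells of a type and less RNA per cell cannot be told apart.

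The labels were checked first. KDM1A, the gene of LSD1, went from 26.0 to 6.29 FPKM with Dox in shLSD1 and from 26.4 to 35.8 FPKM in shG9a. EHMT2, the gene of G9a, went from 7.85 to 4.76 FPKM in shG9a and from 8.0 to 7.97 FPKM in shLSD1. Without a hairpin, EHMT2 was also lower with both inhibitors, at 5.38 FPKM against 11.1 FPKM with vehicle. All 8 squamous epithelial markers examined reached 1 FPKM in at least 1 library, with a summed level of 334.5 to 1157 FPKM, whereas the summed level was 0.0365 to 2.73 FPKM for 4 leukocyte markers, 2.95 to 5.56 FPKM for 4 fibroblast markers and 3.56 to 14.5 FPKM for 3 endothelial markers. Not all 8 did so in every library. KRT6A had 0.676 FPKM with vehicle, 0.769 and 0.819 FPKM in shLSD1 without and with Dox, and 0.805 FPKM in shG9a without Dox. SOX2 had 0.313 FPKM with SP2509 and 0.636 FPKM with both inhibitors. PTPRC stayed at or below 0.042 FPKM, and the markers outside the squamous list that reached 1 FPKM were CD14, COL1A1, CDH5 and VWF. CD14 and CDH5 were highest in shLSD1 with Dox, at 2.66 and 14.0 FPKM, and their part in the values below was not tested.

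Promoter sequences are shown here for the members whose stretch before the transcription start holds a pair of GAAA boxes. With 2 bases between them, such a pair is the core of the elements that interferon regulatory factors bind. RefSeq windows (GRCh38.p14) running from 250 bases before to 50 bases after a start were given for 7 of the 10 genes, 13 windows in all, and IRF3, IRF7 and AGO2 had none. The motif GAAANNGAAA was searched on both strands and was present for IFIH1, TLR3 and EIF2AK2, against 4.37% of 27167 genes and 3.57% of 34943 windows. A closer spacing, GAAANGAAA, was searched after the DDX58 sequence had been seen. It was present for DDX58 alone among the 7, against 3.86% of genes and 3.12% of windows. DDX58 had no match with 2 bases between the boxes. Because the closer spacing was chosen after its sequence had been seen, the match in DDX58 cannot be weighed against these shares. Each sequence below starts 250 bases before the RefSeq start, reads 5′ to 3′ on the strand of the gene and has the motifs in capitals. DDX58 spans chr9:32526197-32526446, IFIH1 chr2:162318685-162318934, TLR3 chr4:186068906-186069161 and EIF2AK2 chr2:37156977-37157230.
DDX58: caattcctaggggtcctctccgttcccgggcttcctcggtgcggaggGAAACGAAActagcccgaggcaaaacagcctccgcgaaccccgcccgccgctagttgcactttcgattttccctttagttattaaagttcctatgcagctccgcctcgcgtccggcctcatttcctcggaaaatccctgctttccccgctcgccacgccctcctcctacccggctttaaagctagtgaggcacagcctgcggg
IFIH1: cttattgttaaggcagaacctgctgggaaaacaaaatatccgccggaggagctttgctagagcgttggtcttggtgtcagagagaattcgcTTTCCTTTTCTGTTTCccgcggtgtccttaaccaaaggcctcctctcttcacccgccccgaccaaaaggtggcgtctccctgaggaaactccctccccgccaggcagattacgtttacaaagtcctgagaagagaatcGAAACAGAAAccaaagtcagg
TLR3: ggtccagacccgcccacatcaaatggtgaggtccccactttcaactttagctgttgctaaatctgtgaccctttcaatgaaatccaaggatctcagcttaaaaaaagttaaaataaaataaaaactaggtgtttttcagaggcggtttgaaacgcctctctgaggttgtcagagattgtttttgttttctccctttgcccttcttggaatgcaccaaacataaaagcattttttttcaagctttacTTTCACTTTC
EIF2AK2: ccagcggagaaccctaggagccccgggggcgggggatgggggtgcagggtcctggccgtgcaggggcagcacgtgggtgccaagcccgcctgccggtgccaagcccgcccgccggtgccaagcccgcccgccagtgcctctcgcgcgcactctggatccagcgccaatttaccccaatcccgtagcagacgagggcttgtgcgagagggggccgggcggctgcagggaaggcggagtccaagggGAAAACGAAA
In DDX58 the GAAANGAAA match lies 203 to 195 bases before the start. IFIH1 holds 3 matches, of which the one on the strand of the gene lies 21 to 12 bases before the start and the 2 on the opposite strand, which overlap each other, lie 159 to 150 and 153 to 144 bases before it. The TLR3 match, on the opposite strand, runs from 4 bases before the start to the base at position 6 after it, and the EIF2AK2 match from 6 bases before the start to position 4 after it, so these sequences are printed to the end of the match. The gene start in the deposited tables lies upstream of the RefSeq start by 128 bases for DDX58, 19 for IFIH1, 85 for EIF2AK2 and 4 for TLR3. A match of letters is a description of the window and not a bound site.

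**Figure D1:**
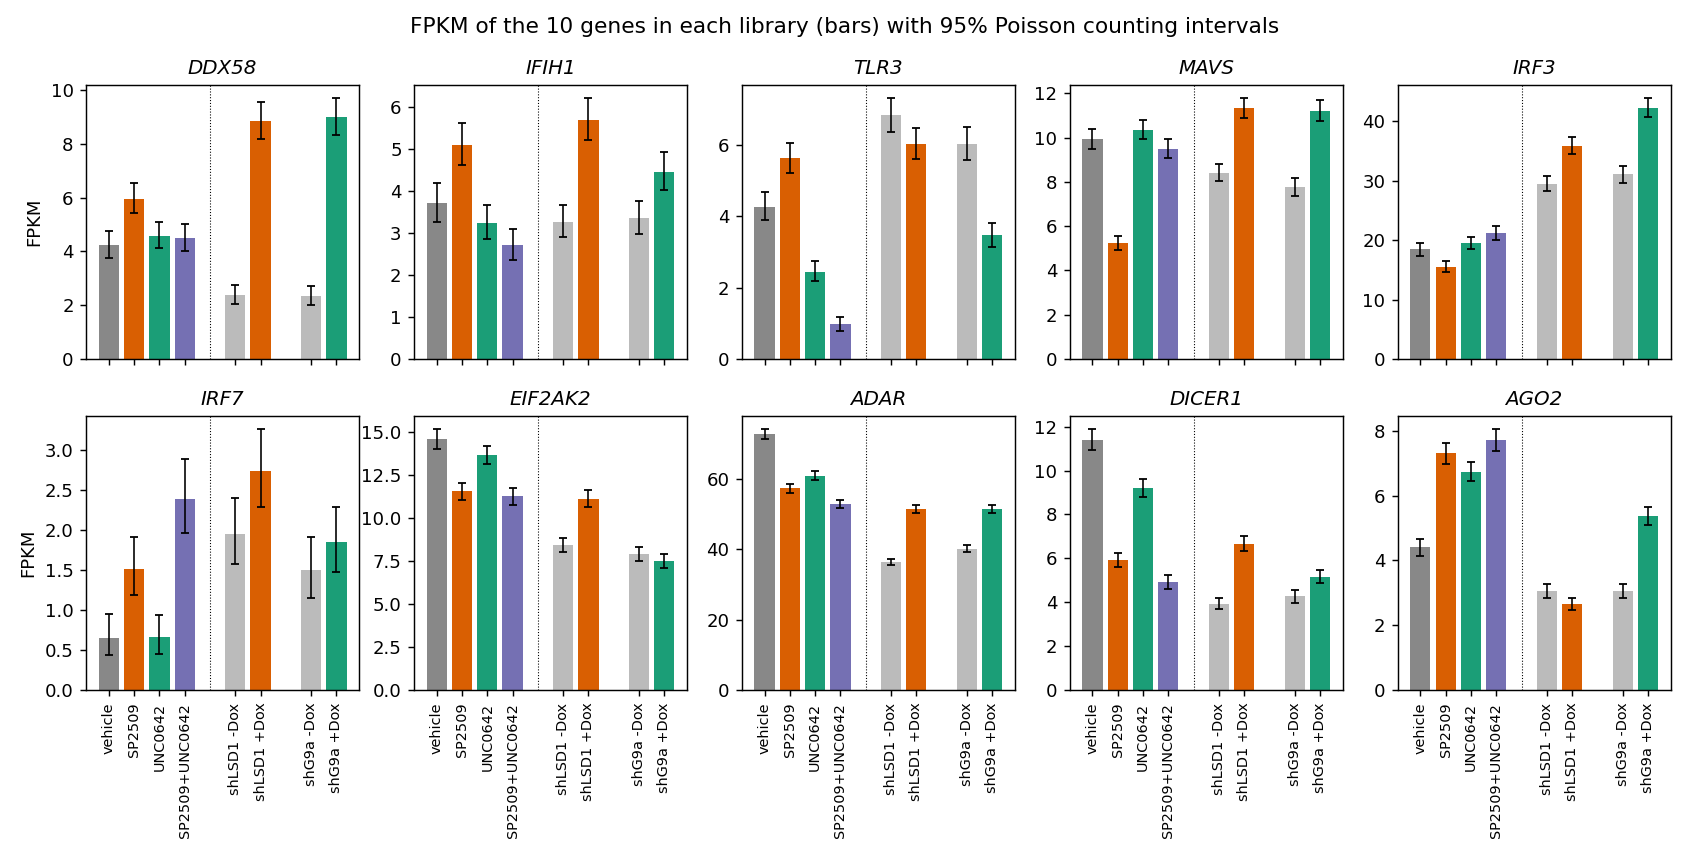
FPKM (vertical axis, linear from 0, with its own range in each panel) of the 10 genes in each of the 8 libraries (horizontal axis). Bars are single libraries, whiskers are 95% Poisson intervals of the estimated reads, and the dotted line separates the tables normalised apart. DDX58 stood at 8.86 and 9.01 FPKM in the libraries with Dox and at 2.38 and 2.35 FPKM in those without, and TLR3 was lowest with the 2 inhibitors together, at 0.969 FPKM.

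DDX58 (ENSG00000107201, chromosome 9 from 32455705 to 32526324, minus strand) had the largest increases of the 10 genes, in the knockdown lines. It had 2.38 FPKM without and 8.86 FPKM with Dox in shLSD1, and 2.35 FPKM without and 9.01 FPKM with Dox in shG9a. The libraries with Dox were thus far above those without, and the 2 lines did not differ beyond counting error in either state. The log2 fold change was 1.54 in shLSD1, with 3.72-fold more reads (95% interval 3.16 to 4.40), and 1.58 in shG9a, with 3.84-fold more reads (3.24 to 4.57). Of the genes tested, 0.694% had an increase at least as large in shLSD1 and 0.879% in shG9a.
In the inhibitor table, DDX58 had 4.24 FPKM under vehicle, 5.96 under SP2509, 4.58 under UNC0642 and 4.50 under both. It was called up with SP2509 (log2 fold change 0.41, 1.41-fold more reads, 1.21 to 1.63) and not with UNC0642 (0.09) or with both (0.07). The intervals of the last 2 read ratios, 0.924 to 1.27 and 0.905 to 1.25, include no change. Thus the library with SP2509 was above the other 3, and the addition of UNC0642 to SP2509 came with a value near that of vehicle. An increase at least as large as that of DDX58 with SP2509 was found in 20.0% of the genes tested.

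IFIH1 (ENSG00000115267, chromosome 2 from 162267079 to 162318703, minus strand), which encodes the sensor of long duplexes MDA5, had smaller increases than DDX58 in the knockdown lines. Its values were 3.26 FPKM without and 5.70 FPKM with Dox in shLSD1, and 3.36 and 4.47 FPKM in shG9a. It was called up in shLSD1 (log2 fold change 0.65, 1.75-fold more reads, 1.51 to 2.02) and was just short of the call in shG9a (0.33, 1.33-fold, 1.14 to 1.55). With the inhibitors it had 3.71 FPKM under vehicle, 5.11 under SP2509, 3.25 under UNC0642 and 2.71 under both. None of these 3 was called, at log2 fold changes of 0.38, -0.15 and -0.34, although the read ratio of 1.38 with SP2509 (1.18 to 1.62) lay above no change and that of 0.730 with both (0.606 to 0.879) lay below it. The calls of IFIH1 depended on the settings. With pseudocounts of 0.1 and 0.01, centring on the median or upper-quartile scaling it was up with SP2509 and down with both. With either smaller pseudocount it was also up in shG9a. After centring, its log2 fold change in shG9a was 0.18. Without centring, 37.1% of the genes tested had an increase at least as large there.

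TLR3 (ENSG00000164342, chromosome 4 from 186069152 to 186088069, plus strand), the endosomal sensor, had the largest decrease of the 10 genes. Its level was 4.27 FPKM under vehicle, 5.63 under SP2509, 2.45 under UNC0642 and 0.969 under both inhibitors. TLR3 was called down with UNC0642 (log2 fold change -0.61, 1.74-fold fewer reads, 1.5 to 2.02) and with both (-1.42, 4.41-fold fewer reads, 3.57 to 5.48). With SP2509 it was not called (0.33, 1.32-fold more reads, 1.17 to 1.49). The library with both inhibitors was therefore lower than either single inhibitor, and 3.30% of the genes tested had a decrease as large in that comparison. For the decrease with UNC0642 alone the share was 8.16%.
In the knockdown lines, TLR3 had 6.84 FPKM without and 6.03 FPKM with Dox in shLSD1, and 6.03 and 3.47 FPKM in shG9a. It was called down in shG9a (log2 fold change -0.65, 1.74-fold fewer reads, 1.54 to 1.97) and not in shLSD1 (-0.16, 1.13-fold fewer reads, 1.02 to 1.25). The libraries with the G9a inhibitor and with the G9a hairpin induced were thus each below their own control, by similar amounts. In shG9a, 10.9% of the genes tested had a decrease at least as large. With Dox, TLR3 and DDX58 moved in opposite directions in shG9a.
Over the 5 comparisons, TLR3 had the widest range of log2 fold changes among the 10 genes, 1.75. Among 4580 genes with at least 5 FPKM in all 8 libraries, the closest to its 5 log2 fold changes were PTPRK, a receptor tyrosine phosphatase, at a mean absolute difference of 0.16, HACD2, a dehydratase of fatty acid elongation, at 0.18, and NR3C1, the glucocorticoid receptor, at 0.18. In the comparison of both inhibitors with vehicle, the log2 fold changes of these 3 genes were -1.48, -1.19 and -1.68. In shG9a they were -0.26, -0.69 and -0.14, and with SP2509 0.50, -0.12 and 0.28, so the likeness was partial.

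MAVS (ENSG00000088888, chromosome 20 from 3846799 to 3876123, plus strand), the adaptor downstream of RIG-I and MDA5, was low in a single library. It had 9.92 FPKM under vehicle, 5.24 under SP2509, 10.4 under UNC0642 and 9.50 under both. Only the value with SP2509 was called (log2 fold change -0.81, 1.89-fold fewer reads, 1.76 to 2.04), and with both inhibitors the ratio was 0.958 (0.898 to 1.02). With SP2509, 19.3% of the genes tested had a decrease at least as large. In the knockdown lines MAVS went the other way, from 8.43 to 11.3 FPKM with Dox in shLSD1 (log2 fold change 0.39) and from 7.76 to 11.2 FPKM in shG9a (0.48). These last calls are near the threshold, and after centring on the median of expressed genes they were 0.28 and 0.34 and no longer calls.

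IRF3 (ENSG00000126456, chromosome 19 from 49659569 to 49665875, minus strand), the factor that is present before a signal arrives, changed little with the inhibitors. It had 18.4 FPKM under vehicle, 15.5 under SP2509, 19.5 under UNC0642 and 21.2 under both, and none was called. In the knockdown lines it had 29.5 FPKM without and 35.8 FPKM with Dox in shLSD1 (log2 fold change 0.27, not called), and 31.0 and 42.3 FPKM in shG9a (0.43, called up). After centring, the value in shG9a was 0.29 and not a call. The span of IRF3 overlaps that of BCL2L12 on the opposite strand by 734 bases, BCL2L12 had 12.1 to 27.9 FPKM, and strand-specific counting is not stated in the sources used here, so reads from the shared stretch cannot be told apart.
IRF7 (ENSG00000185507, chromosome 11 from 612553 to 615999, minus strand), the factor that interferon itself induces, had the fewest estimated reads of the 10 genes, 27 to 126 per library. It had 0.656 FPKM under vehicle, 1.52 under SP2509, 0.659 under UNC0642 and 2.39 under both. IRF7 was called up with SP2509 (log2 fold change 0.60, 2.31-fold more reads, 1.47 to 3.75) and with both (1.03, 3.64-fold, 2.37 to 5.78), while the UNC0642 comparison did not enter the count because both of its libraries were under 1 FPKM. Increases at least as large were found in 14.8% of the genes tested with SP2509 and in 12.3% with both. In the knockdown lines it had 1.95 FPKM without and 2.74 FPKM with Dox in shLSD1, and 1.5 and 1.85 FPKM in shG9a, and neither was called.

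EIF2AK2 (ENSG00000055332, chromosome 2 from 37099210 to 37157065, minus strand), the gene of the kinase PKR, was the member called in none of the 5 comparisons. It had 14.6 FPKM under vehicle, 11.5 under SP2509, 13.7 under UNC0642 and 11.3 under both, and 8.41 and 11.1 FPKM without and with Dox in shLSD1 against 7.88 and 7.49 FPKM in shG9a. The log2 fold changes ran from -0.35 with both inhibitors to 0.36 in shLSD1. It passed the threshold downward with both inhibitors under either rescaling, and upward in shLSD1 with the smaller pseudocounts and when the mean of both lines without Dox was the control.
ADAR (ENSG00000160710, chromosome 1 from 154582062 to 154627999, minus strand), which edits duplexes, had the highest FPKM of the 10 genes in every library. It had 72.7 FPKM under vehicle, 57.3 under SP2509, 60.9 under UNC0642 and 52.8 under both, so that all 3 treated libraries were below vehicle. Only the decrease with both inhibitors was called (log2 fold change -0.45, 1.38-fold fewer reads, 1.34 to 1.42). ADAR rose from 36.3 to 51.5 FPKM in shLSD1 (0.49, 1.42-fold more reads, 1.37 to 1.46), and in shG9a, from 40.2 to 51.5 FPKM, it was not called (0.35). The authors' gene length, as recovered from the values, was 8356 bases in the inhibitor table and 9691 bases in the knockdown table for ADAR, and 4528 and 5108 bases for IFIH1, so the FPKM of these 2 genes are on different length scales in the 2 tables. The other 8 genes had the same length in both.

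DICER1 (ENSG00000100697, chromosome 14 from 95086228 to 95158010, minus strand), the nuclease that makes small RNAs from duplexes, was lower with SP2509, alone and in combination. It had 11.4 FPKM under vehicle, 5.92 under SP2509, 9.21 under UNC0642 and 4.92 under both. The decreases were called with SP2509 (log2 fold change -0.84, 1.93-fold fewer reads, 1.80 to 2.06) and with both (-1.07, 2.32-fold, 2.15 to 2.50), and not with UNC0642 (-0.28). Decreases at least as large were found in 18.0% of the genes tested with SP2509 and in 8.23% with both. With Dox DICER1 went from 3.94 to 6.67 FPKM in shLSD1 (0.64, called up, 1.69-fold more reads, 1.56 to 1.84) and from 4.26 to 5.16 FPKM in shG9a (0.23, not called). The LSD1 inhibitor and the induced LSD1 hairpin thus stood on opposite sides of their controls. DICER1-AS1, which overlaps it on the opposite strand, did not exceed 1.13 FPKM.
AGO2 (ENSG00000123908, chromosome 8 from 140520156 to 140635619, minus strand), the slicing Argonaute, was called up in 4 of the 5 comparisons, more than any other member. It had 4.40 FPKM under vehicle, 7.30 under SP2509, 6.74 under UNC0642 and 7.72 under both. All 3 treated libraries were above vehicle, with log2 fold changes of 0.62, 0.52 and 0.69 and read ratios of 1.66 (1.54 to 1.79), 1.53 (1.42 to 1.65) and 1.75 (1.63 to 1.89), which share the vehicle library. In shG9a it rose from 3.05 to 5.38 FPKM with Dox (0.66, 1.76-fold more reads, 1.62 to 1.92). In shLSD1 it was not called, at 3.06 and 2.66 FPKM (-0.15). Of the genes tested, 14.5% with SP2509, 12.7% with UNC0642, 20.5% with both and 14.8% in shG9a had an increase at least as large.

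**Figure D2:**
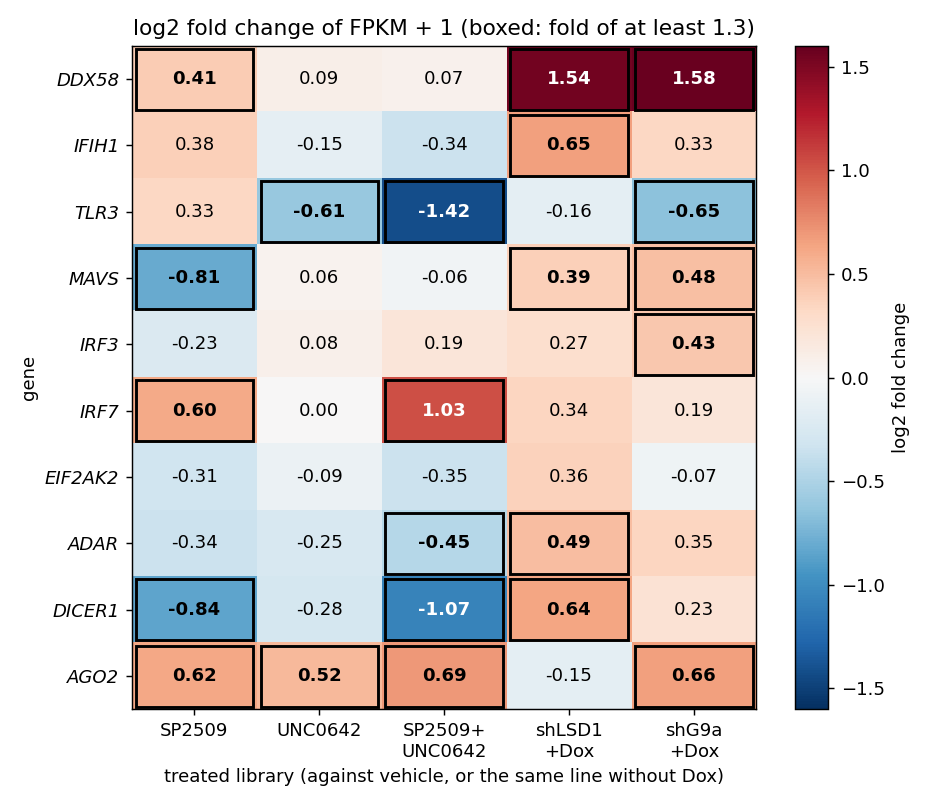
Log2 fold change of FPKM + 1 (color and number) of the 10 genes (rows) in the 5 comparisons (columns), with calls at a fold of at least 1.3 boxed. AGO2 has 4 boxes, all up, TLR3 has 3, all down, and EIF2AK2 has none.

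The members' counts are given beside those of all genes tested. With SP2509, 3 of 10 were up (DDX58, IRF7 and AGO2) and 2 down (MAVS and DICER1), where 21.0% of 13342 genes were up and 39.9% down. With UNC0642, 1 of 9 was up (AGO2) and 1 down (TLR3), beside 18.2% up and 16.9% down. With both, 2 of 10 were up (IRF7 and AGO2) and 3 down (TLR3, ADAR and DICER1), beside 31.4% up and 31.7% down.
In shLSD1, 5 of 10 were up (DDX58, IFIH1, MAVS, ADAR and DICER1) and 0 down, where 24.8% of 12970 genes were up and 12.3% down. In shG9a, 4 of 10 were up (DDX58, MAVS, IRF3 and AGO2) and 1 down (TLR3), where 32.9% of 13080 genes were up and 17.6% down. With so few members and single libraries, counts of this size are not a result about the group. The median log2 fold change of the members was 0.05 with SP2509, -0.04 with UNC0642, -0.20 with both, 0.38 in shLSD1 and 0.34 in shG9a, beside medians over all genes tested of -0.21, -0.01, -0.02, 0.13 and 0.18.
The shift of all genes bears on these counts. Genes that reached 5 FPKM in each of the 2 libraries had a median log2 fold change of -0.09 with SP2509, 0.11 in shLSD1 and 0.14 in shG9a, and near 0 in the other 2 comparisons. After centring on it, the share of calls that were up went from 66.8% to 50.7% in shLSD1 and from 65.2% to 50.0% in shG9a. Such a move toward an even split follows largely from the centring itself. Relative to this shift, DDX58 stood at 1.43 in shLSD1 and 1.44 in shG9a, TLR3 at -0.80 in shG9a, and AGO2 at 0.51 in shG9a.

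**Figure D3:**
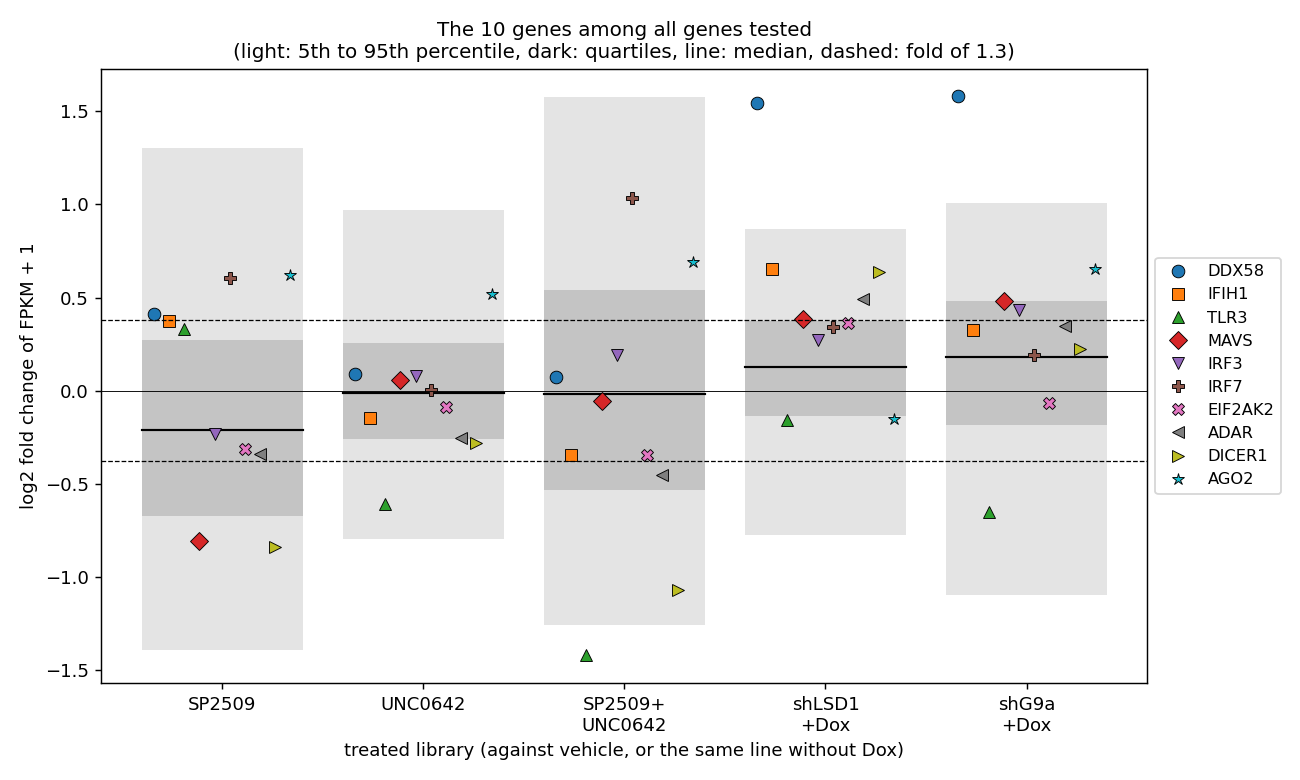
Log2 fold change of FPKM + 1 (vertical axis) of the 10 genes (symbols) in each comparison (horizontal axis), over the 5th to 95th percentile (light) and the quartiles (dark) of all genes tested. DDX58 lies above the 95th percentile in both knockdown lines (0.87 in shLSD1 and 1.01 in shG9a), and TLR3 lies below the 5th percentile with both inhibitors (-1.26).

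The lines without Dox carry different hairpins and are not replicates, but their values give a sense of how far like libraries differ. Between them, the log2 difference of the 10 genes (shLSD1 over shG9a) ran from -0.14 for ADAR to 0.24 for IRF7, none reached the threshold, and for 7 of the 10 the counting interval included no difference. The other 3 were TLR3 (1.13-fold, 1.02 to 1.26), MAVS (1.09-fold, 1.01 to 1.16) and ADAR (0.904-fold, 0.873 to 0.936), so libraries differed there by more than counting error. Ordered by FPKM over the 8 libraries, neighbours had overlapping counting intervals in 7 of 7 cases for IFIH1, 6 for IRF7, 5 for MAVS and EIF2AK2, 4 for DDX58 and AGO2, 3 for TLR3 and IRF3, and 2 for ADAR and DICER1. The ratio of the highest to the lowest FPKM was 7.05 for TLR3, 4.17 for IRF7 and 3.84 for DDX58, and between 1.95 (EIF2AK2) and 2.91 (AGO2) for the other 7, with the reservation about table and length scales given above.

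The other genes of these pathways were read from lists, whose counts stand beside the shares of all genes tested that were given above, namely 21.0% up and 39.9% down with SP2509, 18.2% and 16.9% with UNC0642, 31.4% and 31.7% with both, 24.8% and 12.3% in shLSD1, and 32.9% and 17.6% in shG9a. Among 11 other sensors and effectors of double-stranded RNA, 3 of 9 tested were up and 1 down with SP2509, 4 up and 2 down of 9 with UNC0642, and 5 up and 2 down of 9 with both. In shLSD1 5 of 10 were up and 0 down, and in shG9a 4 of 10 up and 1 down. The largest changes were those of OASL, TICAM1 and OAS1 with both inhibitors. OASL, an OAS-like protein that binds RIG-I, had 0.654 FPKM under vehicle, 4.25 under SP2509, 2.23 under UNC0642 and 7.65 under both (11.7-fold more reads, 8.33 to 16.9). With Dox OASL went up from 6.44 to 10.2 FPKM in shLSD1 and down from 7.29 to 3.40 FPKM in shG9a. TICAM1, the adaptor of TLR3, had 4.99 FPKM under vehicle, 10.9 under SP2509, 8.10 under UNC0642 and 20.8 under both (4.17-fold with both, 3.58 to 4.87). TICAM1 was thus highest in the library in which TLR3 was lowest, while in the knockdown lines it stayed between 9.0 and 9.47 FPKM. OAS1, which makes the activator of RNase L, went from 1.19 FPKM with vehicle to 5.42 FPKM with both.

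Of 12 genes that carry or restrain the signal between MAVS and the IRF factors, a list mixing both kinds, 11 were tested. With SP2509 7 were down and 1 up, with UNC0642 0 down and 1 up, with both 3 down and 2 up, in shLSD1 4 up and 0 down, and in shG9a 3 up and 0 down. With SP2509, RIPK1, a kinase of the MAVS and death receptor complexes, had 3.56 FPKM against 7.85 with vehicle (log2 fold change -0.96), beside the low MAVS value in the same library. RIPK1 was called up with both inhibitors (0.78), in shLSD1 (0.63) and in shG9a (0.69). IKBKE, a kinase of IRF3, went from 6.72 to 15.5 FPKM in shLSD1 (1.1) but was called down with SP2509 (-0.39) and with both inhibitors (-0.70). CYLD, a deubiquitinase, went from 1.52 FPKM with vehicle to 4.41 FPKM with both inhibitors (1.1). The list's median with SP2509 was -0.42, beside -0.21 over all genes tested.

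The 10 partners of DICER1 and AGO2 in small RNA processing gave 6 down and 0 up of 9 tested with SP2509, where 39.9% of all genes were down and 21.0% up. The list's median log2 fold change there was -0.47, beside -0.21 over all genes tested. With UNC0642 0 were called in either direction, with both inhibitors 3 were down and 1 up, in shLSD1 3 were up and 0 down, and in shG9a 4 were up and 0 down. DGCR8, the partner of DROSHA in the microprocessor, had 5.40 FPKM under vehicle, 0.944 under SP2509, 4.40 under UNC0642 and 6.07 under both, so that only the SP2509 library was low (log2 fold change -1.72). DROSHA had 9.81 FPKM without and 19.8 FPKM with Dox in shG9a (0.95). TARBP2, which binds DICER1, had 7.32 and 13.1 FPKM there (0.76).
Of 8 other editing and duplex-binding proteins, 4 were down and 0 up with SP2509, 1 up and 0 down with UNC0642, 1 up and 1 down with both, 4 up and 0 down in shLSD1, and 3 up and 1 down in shG9a. DHX9, a helicase that unwinds duplexes, rose from 23.9 to 48.3 FPKM in shG9a (0.98) and fell from 60.2 FPKM with vehicle to 32.4 FPKM with SP2509 (-0.87). ILF2 fell from 180.4 FPKM with vehicle to 99.7 FPKM with SP2509 (-0.85). STRBP, another duplex-binding protein, fell from 7.38 to 4.55 FPKM in that comparison (-0.59).

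The 6 genes around PKR's substrate, eIF2 alpha, held the largest decrease named in these lists. PPP1R15A, which recruits the phosphatase that reverses PKR's mark and is itself a stress-induced gene, had 180.5 FPKM without and 19.9 FPKM with Dox in shG9a (log2 fold change -3.12), and 177.7 and 45.96 FPKM in shLSD1. In the inhibitor table it had 77.1 FPKM under vehicle, 289.0 under SP2509, 59.7 under UNC0642 and 201.9 under both. The constitutive counterpart PPP1R15B had 23.7 FPKM with vehicle and 69.8 FPKM with both inhibitors (1.52). EIF2AK3, the eIF2 alpha kinase of the endoplasmic reticulum, had 8.21 and 3.04 FPKM with vehicle and UNC0642 (-1.19). It was also down with SP2509, at 3.37 FPKM (-1.08), and was not called with both inhibitors, at 7.70 FPKM (-0.08). Of the 6, 1 was up and 1 down with SP2509, 0 up and 1 down with UNC0642, 3 up and 2 down with both, 1 up and 1 down in shLSD1, and 0 up and 3 down in shG9a.

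Interferon genes themselves were barely detected. IFNB1 had at most 5 estimated reads and IFNL1 at most 6 in any library, and IFNL2 and IFNL3, which were listed in the 4 knockdown libraries, had at most 11 and 6 and had reads only in the libraries without Dox. Of 16 interferons and interferon targets, 4 of 9 tested were up and 0 down with SP2509, 3 up and 1 down of 9 with UNC0642, 6 up and 0 down of 9 with both, 7 up and 0 down of 10 in shLSD1, and 4 up and 2 down of 9 in shG9a. ISG15, a ubiquitin-like protein that is a common readout of interferon signalling, had 3.12 FPKM under vehicle, 8.23 under SP2509, 6.76 under UNC0642 and 36.9 under both (11.8-fold more reads, 8.76 to 16.4). In the knockdown lines it was between 16.6 and 21.5 FPKM, without a call.
IFIT3, an interferon-induced protein that binds MAVS, had 7.83 and 17.8 FPKM without and with Dox in shLSD1 (log2 fold change 1.09) and 6.89 and 12.8 FPKM in shG9a. CCL5, a chemokine target of IRF3 and IRF7, had 3 reads with vehicle and 215 with both inhibitors, a ratio of 66.5 (22.5 to 325), and went from 7.79 to 27.7 FPKM in shLSD1 but from 7.32 to 2.60 FPKM in shG9a. DDX58 and CCL5 therefore moved together in shLSD1 and apart in shG9a.

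In the arm that senses DNA, 1 of 3 tested genes was up with SP2509, 0 with UNC0642, 2 with both, 2 in shLSD1 and 1 in shG9a, and 0 were down in any comparison. CGAS, which makes the messenger cGAMP, had 7.67 FPKM with vehicle and 16.8 FPKM with both (log2 fold change 1.04), TMEM173, the gene of STING, had 15.2 and 29.7 FPKM in shLSD1 (0.92), and IFI16 had 49.7 and 39.6 FPKM with vehicle and both (-0.32, not called). Of 11 annotated genes of endogenous retroviruses, a possible source of double-stranded RNA, between 2 and 4 could be tested per comparison. With SP2509 0 were up and 1 down, with UNC0642 1 up and 0 down, and with both 2 up and 0 down. In shLSD1 1 was up and 0 down, and in shG9a 0 were called. ERVK13-1 was down with SP2509, from 1.61 to 0.213 FPKM. ERVMER34-1 was up with UNC0642, from 1.79 to 4.84 FPKM, and had 4.39 FPKM with both. ERV3-1 was up with both, from 1.27 to 2.06 FPKM. Reads of such genes can be shared with related copies elsewhere in the genome, so these values are uncertain.

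**Figure D4:**
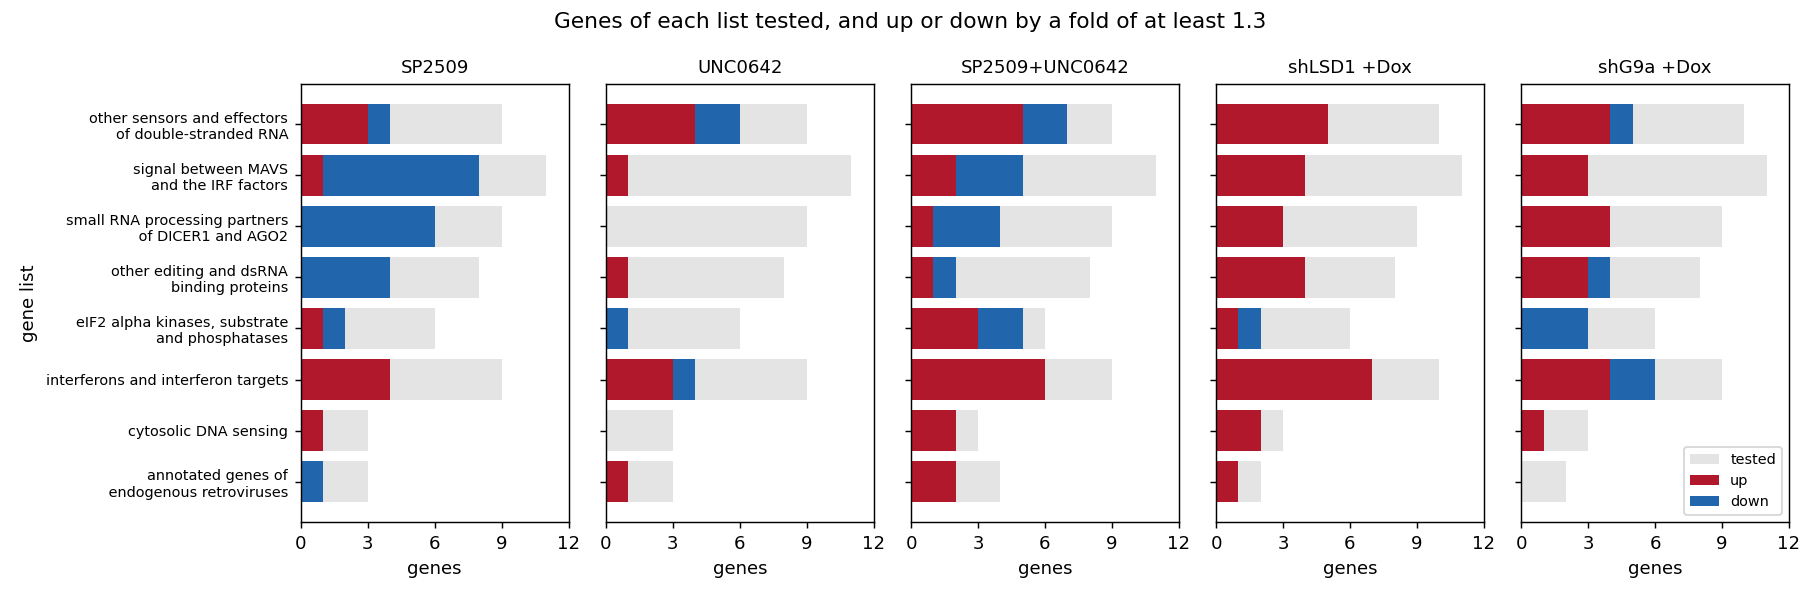
Number of genes (horizontal axis) of each pathway list (rows) that were tested (grey) and that were up (red) or down (blue) by a fold of at least 1.3, in the 5 comparisons (panels). In shLSD1, 7 of 10 interferon targets are red, where 24.8% of all genes were up, and with SP2509 6 of 9 small RNA processing partners are blue, where 39.9% of all genes were down.

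Over all lists together, 17.2% of 58 genes tested were up and 34.5% down with SP2509, 17.2% of 58 up and 6.90% down with UNC0642, and 37.3% of 59 up and 18.6% down with both. In shLSD1 45.8% of 59 were up and 1.69% down, and in shG9a 32.8% of 58 were up and 12.1% down. These shares stand beside the shares of all genes given above for the same comparisons.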

How the data were processed

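The authors discarded contaminated reads and reads of low quality, aligned the remaining ones to GRCh38.87, and deposited FPKM values per gene in 2 tables of 4 libraries each, normalised separately. The aligner, the counter and whether reads were counted by strand are not given in the sources used here. Groups were taken from the sample labels, with 1 library per condition.

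From the FPKM, each library's total and each gene's whole reads were estimated, taking the smallest gene length that made all values of a gene whole reads, which accounted for 99.5% to 99.8% of the totals. The length nearest the reference was to be used first, but gave 111.7% to 115.8% of them, so the choice was made after seeing the data. On simulated libraries, all 8 totals came back exactly, as did every read count for 99.6% of 24856 genes. The simulation took the smallest length as the true length, so it cannot show that this choice was right. It held only genes with the same length in both tables, which leaves out ADAR and IFIH1. For 25 gene entries in the 2 tables together no whole reads were found. For DDX58 and DICER1 a doubled length was also possible, which would double their reads and narrow their intervals.

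Fold changes used a pseudocount of 1 FPKM, and calls a fold of at least 1.3 with at least 1 FPKM in at least 1 of the 2 libraries, over all genes of a table. With simulated 2-fold changes in 200 genes, 197 to 199 were called in each comparison, and 4.90% to 5.64% of unchanged genes were called, a rate from counting error alone. The changed genes were drawn only from genes above a minimum mean of estimated reads, which IRF7 did not reach. The share of changed genes recovered therefore does not cover low genes. Genes named from lists were, at most, the 3 with the largest change per list, apart from 4 interferon genes named, after their values were seen, for their low reads, and the 3 genes most like TLR3 had the smallest mean absolute difference over the 5 log2 fold changes. The members and lists were chosen with earlier results of these data known. Python 3.11.15 with numpy 2.4.6, pandas 2.3.3, scipy 1.17.1 and matplotlib 3.10.9 was used. Alternatives were other pseudocounts, filters, fold thresholds and scalings, an added binomial test, another control and protein-coding genes only.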

Additional observations from a re-analysis of the deposited data

Results flagged for a closer look

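Calls in opposite directions were looked for in 4 pairs of comparisons, namely Dox in the 2 lines, SP2509 and UNC0642, and each inhibitor and the knockdown of its target. They were found for 2 of the 10 genes, both times between SP2509 and the induced shLSD1 hairpin. In that pair 20.4% of the 11769 genes tested in both comparisons had opposite calls (14.4% down with SP2509 and up in shLSD1), so 2 of 10 is near the share of all genes. MAVS had a log2 fold change of -0.81 with SP2509 and 0.39 in shLSD1, a difference of -1.19. DICER1 had -0.84 and 0.64, a difference of -1.48. Neither difference was tested, since each condition has 1 library, and the call of MAVS in shLSD1 was lost after centring (0.28) and with upper-quartile scaling (0.31). The all-gene median moved in the same 2 directions, -0.21 with SP2509 and 0.13 in shLSD1.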

How the results depend on the processing

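No paired analysis was possible because each condition has 1 library and the labels give no replicate numbers, and for the same reason no library could be left out. A fold threshold of 2 changed the counts of members most: with SP2509 it left 0 up and 0 down, with UNC0642 0 up and 0 down, with both inhibitors 1 up (IRF7), in shLSD1 1 up (DDX58) and in shG9a 1 up (DDX58) and 0 down, while TLR3 and DICER1 stayed down with both inhibitors. A minimum of 5 FPKM gave 0 down with UNC0642 and 1 up with both, since TLR3 and IRF7 fell out. With SP2509, pseudocounts of 0.1 and 0.01 and centring each gave 5 members up (IFIH1 and TLR3 were added). With both inhibitors, centring and upper-quartile scaling each gave 5 members down (IFIH1 and EIF2AK2 were added), and pseudocounts of 0.1 and 0.01 added IFIH1. In shG9a, centring gave 2 up (MAVS and IRF3 were lost). All other counts of members were within 1.5 times of those in the text. Dropping the filter, adding the binomial test (p below 0.05) or keeping protein-coding genes changed no member's call. Of the members' log2 fold changes under other pseudocounts, scalings and controls, 33 moved by more than their counting error and 187 by less. With the length nearest the reference, all 50 lower bounds of the folds stayed within counting error. No called log2 fold change of a member changed sign under another pseudocount, scaling or control. Depth limits IRF7 most, whose lowest library had 27 estimated reads.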
